A study of Mus musculus with 5 samples.

Results

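H3K27ac, acetylation of lysine 27 on histone H3, was mapped by chromatin immunoprecipitation followed by sequencing in mouse epiblast stem cells of the line EpiSC9. The study profiled 4 histone marks and an input in this line, with 1 library each. The H3K27ac immunoprecipitation started from 5000000 crosslinked cells cultured with FGF2 at 10 ng/ml. The cells grew on irradiated embryonic fibroblast feeders, and how much signal came from feeders is not known. The intervals described here are all H3K27ac peaks on chromosomes 1 to 19, 32808 of the 33600 in the H3K27ac list and of 156288 in the 4 peak lists. The other 792 H3K27ac peaks lie on X and were left out.

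H3K27ac is written mainly by the acetyltransferases p300 and CBP and is bound by bromodomain proteins. It marks active promoters and active enhancers, and it cannot coexist with methylation on the same lysine residue. Dense groups of acetylated elements are often called super-enhancers or stretch enhancers. Epiblast stem cells represent primed pluripotency, a state that resembles the epiblast after implantation. Peak size, strength and spacing describe how the called intervals lie along chromosomes, as isolated peaks, as closely spaced groups or as dense regions. They depend in part on how peaks were called.

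There was 1 H3K27ac library and no replicate, so every value below describes this library and carries no test. Intervals of 95% on shares (Wilson) and on medians (order statistics) cover counting over peaks only. They treat peaks as independent, which nearby peaks are not, so intervals on shares of single peaks may be too narrow. The list gives no read counts, so the sequencing depth is unknown. Coordinates are 1-based positions of mm9, the build named in the submitters' processing notes. No annotation or sequence of mm9 was used here, so regions are named by position, without genes or sequence.

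H3K27ac peaks were mostly short, with a long upper tail. The median width was 819 bp (95% interval 811 to 827), with quartiles of 569 and 1413 bp. The narrowest peak measured 238 bp and the widest 13883 bp. Peaks of 500 bp to below 1 kb were the most frequent class, with 44% of peaks, yet they held only 27.2% of the 37.4 Mb covered in all. Peaks of 2 to below 4 kb were 11.8% of the list and held 27.1% of the covered length, almost the same amount. The wide tail therefore carried much of the acetylated sequence.

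The widest 1% of peaks, 329 intervals, were 5323 bp wide at the median and held 5.2% of the covered length. The widest 5% held 17.1% and the widest 10% held 28.1%. At the other end, the narrowest 10% of peaks held 3.51%. Peaks of 4 kb or more numbered 505 and occurred on all 19 autosomes, from 8 on the chromosome with fewest to 42 on chromosome 11. Only 205 peaks reached 5 kb and 12 reached 10 kb, these last on 11 chromosomes. Very broad single intervals were thus rare and scattered, not gathered on 1 chromosome.

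**Figure D1:**
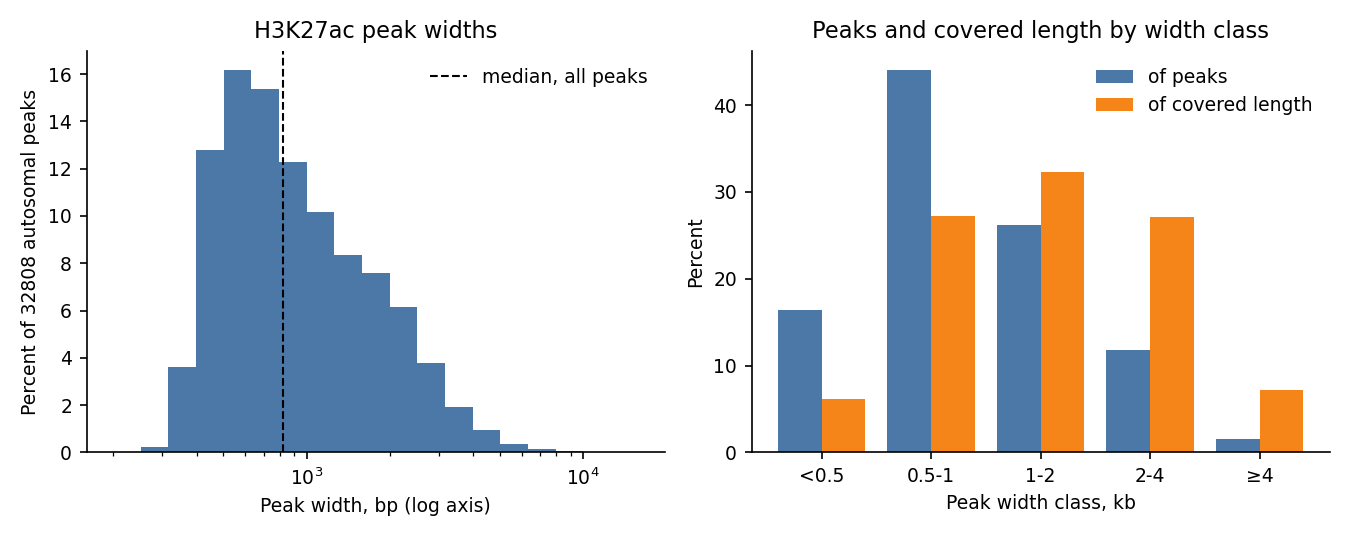
Left, the distribution of peak widths in bp on a log axis as percent of autosomal H3K27ac peaks, with the median of 819 bp dashed. Right, bars give the percent of peaks and of covered length in 5 width classes. Peaks of 0.5 to 1 kb lead by number (44%), while peaks of 1 to 2 kb lead by covered length (32.3%).

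The widest peak was chr16:22404526-22418408, 13.9 kb long, with neighbours 71 bp before and 1402 bp after it. The next was chr8:114247774-114260515 with 12.7 kb, with its neighbours 5.59 and 5.93 kb away. The third, chr5:123434080-123446140, measured 12.1 kb and lay 26 bp before the next peak and 92.5 kb after the previous one. Each of these 3 had another peak within 10 kb on at least 1 side.

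The fourth widest differed in its surroundings. This peak, chr3:128916804-128928816, 12 kb wide, had no other H3K27ac peak for 1225 kb on one side and 304 kb on the other. The fifth, chr11:69221735-69233735, was also 12 kb wide, with neighbours 8.71 and 22.5 kb away. The second scored 3104.2 and the other 4 scored exactly 3100. A single broad interval in an otherwise empty megabase, as on chromosome 3, was the exception among the 12 peaks of 10 kb or more, since the other 11 had a peak within 10 kb.

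Peak strength was spread over nearly the whole range of the scale. Scores are the authors' own values and served only to describe and filter peaks within this list. What they measure is not stated in the sources used, so strong and weak mean here only a high and a low score. The median was 162.8 (159.4 to 166), with quartiles of 79.1 and 517. The lowest score was 50, and scores crowded towards it. In all, 11328 peaks (34.5%, 34 to 35) scored below 100 and 3898 (11.9%, 11.5 to 12.2) below 60. Those below 100 held 16.2% of the covered length. A large part of the list by number thus lay near the lowest score.

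At the upper end the scale stopped. Scores of 3100 or more were given to 1009 peaks (3.08%, 2.89 to 3.27), which held 10.5% of the covered length. Of these, 930 scored exactly 3100 and 79 lay above it, up to 3233.1. By comparison, 64 peaks scored from 3000 to below 3100. The peaks above 3100 were narrower, with a median width of 2848 bp, than those at exactly 3100, with 3520.5 bp. The score therefore hardly ranks the strongest intervals among themselves.

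Wide peaks had high scores. Spearman's rho over the 32808 peaks was 0.90, given as a description, since all peaks share 1 library. The median score was 59.1 for peaks below 500 bp, 110.6 for 500 bp to below 1 kb and 438.7 for 1 to below 2 kb. It reached 1549.8 for 2 to below 4 kb and 3100 for 4 kb or more. Of the 505 peaks of 4 kb or more, 70.1% were at 3100 or above, against 0.535% of those of 1 to below 2 kb. No peak below 1 kb reached that level.

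**Figure D2:**
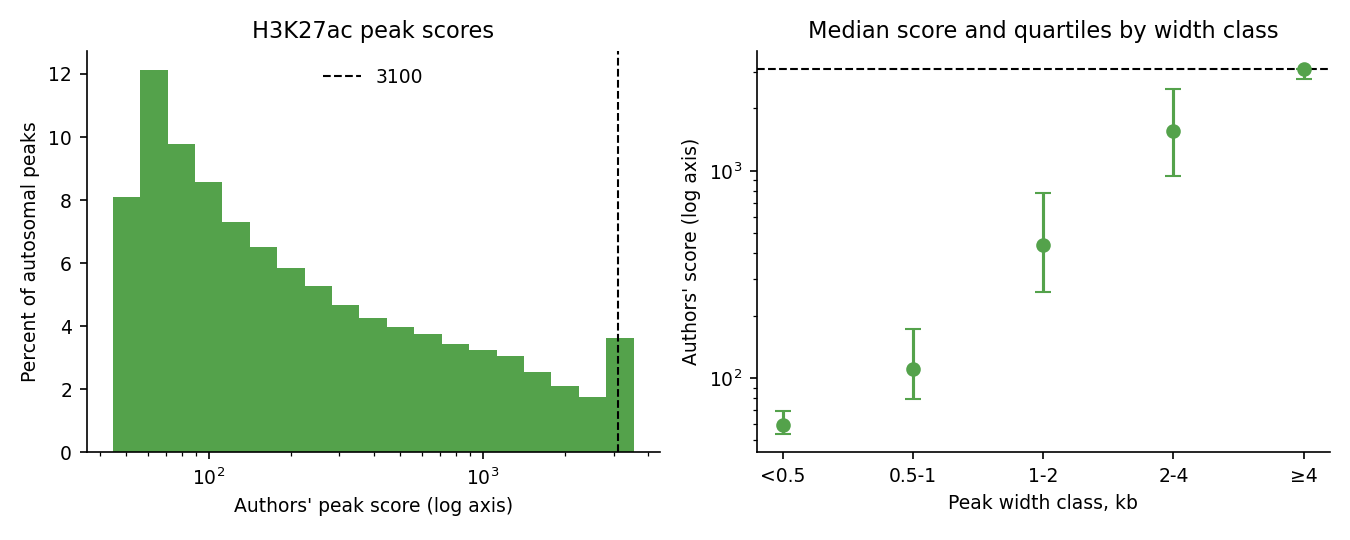
Left, the distribution of the authors' scores on a log axis as percent of autosomal peaks, with 3100 dashed. The lowest bin is only partly filled because scores begin at 50. Right, points give the median score and bars the quartiles in 5 width classes on a log axis. The median climbs from 59.1 below 0.5 kb to 3100 at 4 kb or more.

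Few peaks left this trend. Only 4 of the 4379 peaks of 2 kb or more scored below 200. The weakest of these was chr1:173480835-173482863, 2029 bp wide with a score of 81.4, a position chosen after its values were seen. Narrow and strong peaks were more frequent. Of the 19837 peaks below 1 kb, 73 scored 1000 or more, up to 2621.1, and they occurred on all 19 autosomes. Among these 73, 57 (78.1%) had another peak less than 500 bp away, against 46% of all peaks below 1 kb. Most strong narrow intervals thus had a close neighbour.

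Distances between neighbouring peaks had 2 maxima that overlapped. Over 32789 gaps, measured from edge to edge, the median was 12773 bp (12267 to 13172), with quartiles of 621 bp and 53.3 kb. In steps of 0.25 on the log10 scale, 1 maximum lay at 100 to 178 bp, with 5.07% of gaps. A broader maximum covered 17.8 to 56.2 kb, where each of the 2 steps held 10.3%. Between them the share fell to 2.96% at 1 to 1.78 kb. The dip was shallow, and 6258 gaps were of 1 to below 10 kb, against 9002 below 1 kb. The median gap was 22879 bp among peaks scoring 100 or more and 25998 bp after peaks less than 500 bp apart were joined.

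Close spacing was common. Gaps below 100 bp made up 10.8% (10.5 to 11.1) of all gaps, and those below 500 bp 23.8% (23.3 to 24.2). Some 46.5% lay below 10 kb and 84.5% below 100 kb. No peaks overlapped, and the smallest gap was 1 bp. When peaks less than 500 bp apart were joined, 32808 peaks became 25014 intervals, of which 6512 held more than 1 peak.

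**Figure D3:**
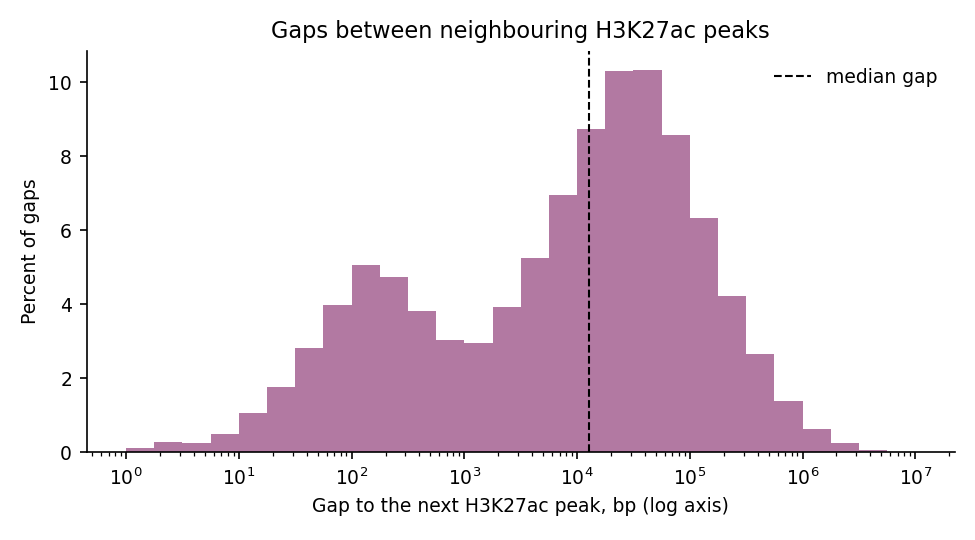
Gaps between consecutive autosomal H3K27ac peaks in bp on a log axis, as percent of 32789 gaps, with the median of 12773 bp dashed. There is a low maximum at 100 to 178 bp, a dip near 1 to 1.78 kb and a main maximum between 17.8 and 56.2 kb.

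Neighbours did not resemble each other much in size. Over all consecutive pairs, Spearman's rho was 0.043 for width and 0.058 for score. For the 3539 pairs less than 100 bp apart it was 0.085 and 0.17. For the 12437 pairs 10 to below 100 kb apart it was 0.025 and 0.036. In the closest pairs the median of the higher score was 439.6 and that of the lower 121.5, against 383 and 88.1 over all pairs. Such weak correlations in a single list are given as values only.

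High scores lay beside low ones at all distances. Over all peaks 14.7% scored 1000 or more and 34.5% below 100. A score of 1000 or more lay next to one below 100 in 3042 of the 32789 pairs (9.28%). This is near the share that independent partners would give. The share was 6.44% for gaps below 100 bp and 11.4% for gaps of 1 to below 10 kb. Both partners were at 3100 or more in 0.18% of pairs. By gap class this ranged from 0.02% at 100 kb or more to 0.34% below 100 bp. The level was reached by 3.08% of peaks, and independent partners would share it in fewer than 0.18% of pairs. Among the 1009 peaks at that level considered alone, the median gap was 771 kb, and 18 of 990 gaps were below 500 bp. The 505 peaks of 4 kb or more followed each other at a median of 1651 kb. These distances depend on how few such peaks there are.

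Chains of closely spaced peaks were short. Peaks linked by gaps of at most 3 kb formed 21665 runs, of which 14060 (64.9%) were 1 peak and 5455 (25.2%) were pairs. Runs of 3 to 5 peaks numbered 2002 and held 20.7% of peaks. Only 142 runs had 6 to 10 peaks and 6 had 11 or more. The median of the highest score in a run was 152.8 for 1 peak, 326.1 for pairs, 707.6 for 3 to 5 and 1961.3 for 6 to 10 peaks. The median of the lowest score was 97.1 in pairs and 59.5 in runs of 6 to 10. A run with more members has more chances of both a high maximum and a low minimum.

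The widest peak of a run, whose share must fall as members are added, held a median of 61% of the covered length in pairs, 46.6% in runs of 3 to 5 and 33.7% in runs of 6 to 10. In the 1390 runs of exactly 3 peaks, the widest was the middle one in 32.8% (30.4 to 35.3), close to 1 in 3. The strongest was the middle one in 37.4% (34.8 to 39.9). Median scores at the 3 positions were 154.1, 195.6 and 148. The middle member was thus somewhat stronger but hardly wider, with medians of 812, 836.5 and 784.5 bp.

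The run with most peaks was chr15:77626159-77673993, where 17 peaks covered 40.6 of 47.8 kb (84.8%) and scores ran from 80.7 to 3100. Next was chr9:114432271-114474371, with 15 peaks over 34.9 of 42.1 kb (82.9%). Both were nearly continuous domains cut by short gaps. The run at chr10:6219685-6243704 was of another make. It held 1 peak of 7.53 kb with a score of 3100 and 11 others, and the median score was only 58.4.

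Another 12 peaks formed chr9:121206074-121230687, with 56.4% of the span covered and a median score of 140.7. The fifth, chr10:120891062-120915174, held 11 peaks, none of them at 3100 and the widest 3.16 kb long. Another run also had 11 peaks and came after it by its smaller covered length. Runs with many peaks thus ranged from a nearly solid block, as on chromosome 15, to a broad peak in a run of low median score, as in the third.

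Single peaks, with no other H3K27ac peak within 10 kb on either side, were 9757 of 32808 (29.7%, 29.2 to 30.2). The share depends on the definition, with 52.4% after peaks less than 500 bp apart were joined and 17.7% at a neighbour distance of 25 kb. The other 23051 had at least 1 neighbour, 7471 of them on both sides. Single and neighbouring peaks were almost alike in size: their median widths were 806 and 824 bp and their median scores 146.8 and 169. The width difference of 18 bp changed sign with a neighbour distance of 5 kb (826 and 816 bp) and with peaks of 100 or more in score alone (1220 and 1123 bp). Scores below 100 were found in 38% of single and 33% of neighbouring peaks.

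The share of single peaks did not fall steadily with width. It was 33.8% (32.6 to 35.1) below 500 bp, 27.3% (26.6 to 28) at 500 bp to below 1 kb and 30.2% (29.2 to 31.2) at 1 to below 2 kb. It was highest at 2 to below 3 kb, with 36.2% (34.5 to 37.9). Above that it was lower, with 27.2% (24.3 to 30.3) at 3 to below 4 kb, 15.3% (11.7 to 19.8) at 4 to below 5 kb and 12.7% (8.8 to 17.9) at 5 kb or more. Peaks of 2 to below 3 kb were thus alone more often than the 29.7% over all peaks, and the broadest less often. The difference between 4 kb or more (14.3%) and 2 to below 3 kb (36.2%) kept its sign in all 4 other settings that were run.

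Very near neighbours followed a mirrored course. Part of this is built in, since a peak with another less than 500 bp away cannot be single. Another peak lay less than 500 bp away for 48.9% of peaks of 500 bp to below 1 kb, for 28.4% (26.8 to 30) of those of 2 to below 3 kb and for 48.3% (41.5 to 55.1) of those of 5 kb or more. By score, the single share was 34.7% at 50 to below 60, lowest at 25.3% from 200 to below 500, and 33.2% from 2000 to below 3100. It was 26.6% (23.9 to 29.4) at 3100 or more. Peaks of middling strength were thus the most often accompanied.

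**Figure D4:**
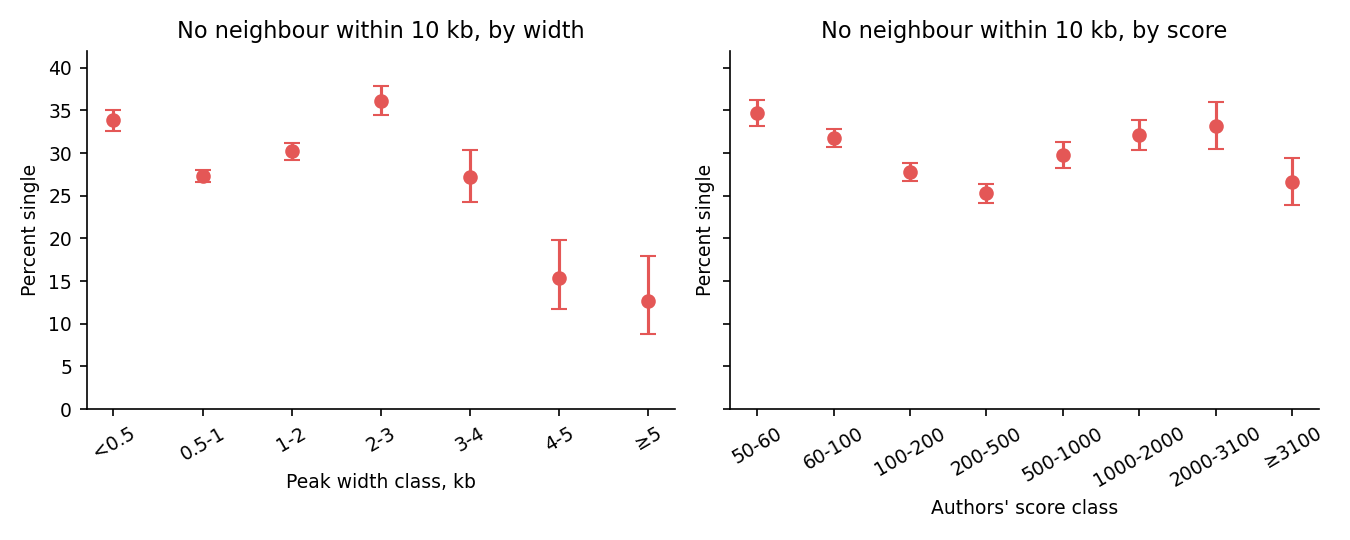
Points give the percent of autosomal H3K27ac peaks with no other peak within 10 kb, by width class in kb (left) and by the authors' score class (right), and bars give 95% Wilson intervals. The share peaks at 36.2% for widths of 2 to 3 kb and falls to 12.7% at 5 kb or more.

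Peaks at 100 kb or more from any other were smaller at the median than the whole list, which had 819 bp and a score of 162.8. The 1514 peaks (4.61%) at 100 kb or more from any other were 665 bp wide at the median, with a median score of 107.8, and 19 of them reached 3100. The 8244 peaks with the nearest peak 10 to below 100 kb away had 842.5 bp and 158.3, close to the whole list. Those with the nearest peak 1 to below 10 kb away had 900 bp and 164.6. With the nearest peak 500 bp to below 1 kb away the medians were 736.5 bp and 116.6, so size did not fall steadily with distance. The 5 widest single peaks, by the distance of 10 kb, each had a score of 3100. The widest was the 12 kb interval on chromosome 3 described above. It was followed by chr4:43569171-43577261 (8.09 kb), chr3:148877826-148885724 (7.9 kb), chr4:133306018-133313773 (7.76 kb) and chr12:81211424-81218926 (7.5 kb). Of these, the second peak on chromosome 3 was the most secluded, 224 and 90.3 kb from its neighbours.

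On the scale of megabases the acetylated length was concentrated. Over 2482 bins of 1 Mb, the median bin held 9 peaks and 8.89 kb of covered length, with quartiles of 2.28 and 22.2 kb. The top 1% of bins, 25 in number, held 5.88% of the covered length, the top 5% held 21.9% and the top 10% held 36.6%. The fuller 50% of the bins held 90.1%. By number of peaks the top 10% held less, 32.7%. There were 312 bins (12.6%) with no peak and 117 with 41 or more. The 312 include 61 bins before the first peak of any list.

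Full bins often lay next to each other. Of the 249 bins in the top 10%, 132 (53%) bordered another of them, and Spearman's rho between adjacent bins was 0.45 over 2463 pairs. All 19 autosomes had at least 5 bins in the top 10%, and chromosome 11 had the most with 30. Peaks inside them were wider and stronger than elsewhere, with a median width of 925 against 778 bp and a median score of 210.2 against 146.9. They were single in 19.6% of cases, against 34.6% elsewhere. The bins were chosen by covered length, so part of these differences follows from the choice.

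The fullest bin was chromosome 10 from 80 to 81 Mb, with 97 peaks over 113 kb, or 11.3% of its length. The bin just before it, 79 to 80 Mb, was the fourth, with 72 peaks over 103 kb. Chromosome 7 gave the second and the third, from 52 to 53 Mb with 81 peaks over 109 kb and from 29 to 30 Mb with 58 peaks over 106 kb. The fifth was chromosome 4 from 132 to 133 Mb, with 66 peaks over 99.3 kb. These bins were full in different ways. The bin at 29 Mb on chromosome 7 had the fewest peaks of the 5 but the widest, with a median of 1318.5 bp and a largest peak of 9.44 kb. The fullest bin had the most peaks, and the narrowest, with a median of 902 bp.

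Peak-free stretches were the counterpart of these regions. Whether they hold assembly gaps, or sequence where reads cannot be placed, was not examined. They are lengths without a called peak, and absence of acetylation in them was not shown. Between consecutive peaks there were 314 stretches of 1 Mb or more, 0.958% of all gaps. Together they measured 566 Mb, or 23.9% of the length between peaks, and they occurred on all 19 autosomes. Of these stretches 79 reached 2 Mb and 8 reached 5 Mb. The 605 peaks at their borders were weaker than the others, with a median score of 119.9 against 163.9 and a median width of 678 against 822 bp.

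The longest stretch was chr14:89725945-97958072, 8.23 Mb without an H3K27ac peak. Chromosome 14 also held the third, chr14:107848366-115238856 with 7.39 Mb, and the fourth, chr14:79988730-86726051 with 6.74 Mb. The second was chr7:39057173-46704268 with 7.65 Mb, and the fifth was chr1:24686693-30471233 with 5.78 Mb. Strong peaks could stand right at such a border. The fourth stretch began after a peak of 2502 bp with a score of 3100, and the second and the fifth began after peaks scoring 1002.7 and 1168.4.

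Chromosomes differed in density more than in the median width or the median score of their peaks. Chromosome 11 had the highest density, 20.7 peaks per Mb, followed by chromosomes 19 with 16.1 and 17 with 15.9. Chromosome 14 had the lowest, 9.51, below chromosomes 12 with 10.6 and 1 with 10.8. The median over the 19 was 13.4. The ratio of highest to lowest density exceeded that of the median widths, which lay between 760 bp on chromosome 1 and 878 bp on chromosome 7. Median scores ranged from 140.4 on chromosome 1 to 197.1 on chromosome 7. Over the 19 chromosomes, Spearman's rho of density was 0.54 with median width and 0.48 with median score.

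Dense chromosomes had fewer single peaks and less empty length. Chromosome 11 had 25.7% single peaks and 11.2% of its length in stretches of 1 Mb or more. Chromosome 14 had 32.2% and 33%. Spearman's rho of density over the 19 chromosomes, which share 1 library, was -0.74 with the share of single peaks and -0.68 with the share of length in such stretches. Both relations are partly built in, since more peaks per Mb leave shorter gaps. Chromosome 7 went against the second relation, with 14.3 peaks per Mb and still 30.3% of its length in stretches, and it combined 26 of the top bins with 27 empty ones. Chromosome 13 was the reverse, with the highest share of single peaks (34.9%), only 14.3% of its length in stretches and 5 top bins, the fewest of all.

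**Figure D5:**
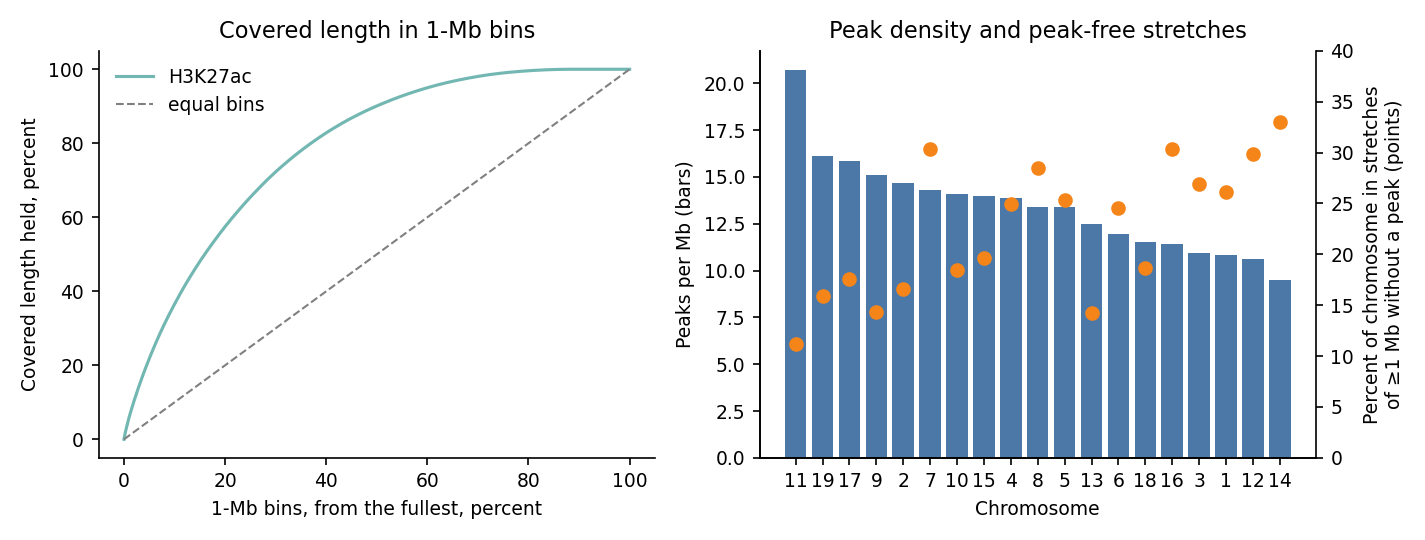
Left, the percent of H3K27ac covered length held by 1-Mb bins taken from the fullest, with a dashed line for equal bins. The top 10% of bins hold 36.6%. Right, bars give peaks per Mb of each autosome and points the percent of its length in peak-free stretches of 1 Mb or more, with chromosomes ordered by density. Chromosome 11 is densest and chromosome 14 sparsest.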

How the data were processed

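The deposited H3K27ac list gives, for each peak, its mm9 interval and the authors' score. The submitters' processing notes name MACS 1.4, Bowtie 0.12.9 and Cufflinks (version not given), without roles. What control and calling threshold were used, and how duplicate reads were handled, is not stated in these sources. The other 3 lists served for peak totals, chromosome ends and the counts in peak-free stretches.

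Gaps were measured edge to edge, peaks were split at bin borders, and bins ran from base 1 to the last peak end in any list. Densities use the same ends. Stretches before the first and after the last peak of a chromosome were left out. Python 3.11.15, numpy 2.4.6, scipy 1.17.1, pandas 2.3.3 and matplotlib 3.10.9 were used. On simulated data, 10 of 10 planted measures were recovered exactly. The share in the top 10% was checked on a separate made-up vector, the others on 32300 simulated peaks.

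Named regions are the 5 widest peaks, the 5 runs with most peaks, the 5 fullest bins, the 5 longest stretches, the 5 widest single peaks, and the 3 densest and 3 sparsest chromosomes. Measures and members were chosen with earlier results of these data known.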

Additional observations from a re-analysis of the deposited data

How the results depend on the processing

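All values come from 1 library of unknown depth, and scores that stop at 3100 hide differences among the strongest peaks. With only the 21480 peaks of a score of 100 or more, the median width was 1161 bp, the median score 338, the share at 3100 or more 4.7%, the share of the widest 10% of peaks 24.8% and rho of width with score 0.83. The median gap was then 22879 bp, gaps below 1 kb 20.8%, single peaks 40.1%, the top 10% of bins 38.3%, and stretches of 1 Mb or more numbered 401 over 32.5% of gap length. With peaks less than 500 bp apart joined, the median width was 1224.5 bp, the share of the widest 10% was 28.3%, rho 0.88, the median gap 25998 bp, gaps below 1 kb 4.83% and single peaks 52.4%. Centre to centre, the median distance was 13921 bp, with 10.5% below 1 kb. Without scores of 3100 or more, rho was 0.89. Without pairs less than 500 bp apart, rho of neighbours was 0.035 for width and 0.031 for score. Single peaks were 38% at 5 kb and 17.7% at 25 kb.

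The difference in median width, single minus neighbouring, was -18 bp. It reversed to 97 bp for scores of 100 or more and to 10 bp at 5 kb, and was -101 bp after joining and -63 bp at 25 kb. The cause was not tested. The single share at 4 kb or more minus that at 2 to below 3 kb was -21.9 points, and -24.2, -22.4, -26.5 and -14.6 points for scores of 100 or more, after joining, at 5 kb and at 25 kb. The top 10% of bins held 42.8% with bins of 500 kb, 32.1% with 2 Mb, 37.1% after a shift of 500 kb, 32.7% by number of peaks and 36% without the 61 bins before the first peak of any list, a setting added after seeing the data. Stretches of 500 kb or more numbered 902 over 40.9% of gap length. No paired analysis was possible because each mark has 1 library.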

Other observations

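The stretches of 1 Mb or more without an H3K27ac peak were poor in peaks of the other marks, but most held some. Of the 314, 24 (7.64%), with 39.2 Mb in all, held no peak of any list. H3K4me1 peaks, a mark of enhancers and promoter flanks, lay in 260 of them, H3K4me3, a mark of promoters, in 243 and H3K27me3, the Polycomb mark, in 212. They held 2.37% of the autosomal H3K4me1 peaks, 3.74% of those of H3K4me3 and 7.93% of those of H3K27me3. The densities inside were 3.2, 1.85 and 1.6 peaks per Mb. All these shares lay below the 23.9% of the length between H3K27ac peaks that the stretches made up. The longest stretch, on chromosome 14, had 1 H3K4me1, 17 H3K4me3 and 3 H3K27me3 peaks. The third longest had 32 H3K4me3, 0 H3K4me1 and 2 H3K27me3 peaks over 7.39 Mb. The second, on chromosome 7, had 3 H3K4me3 peaks and none of the other marks. Widths and scores of the peaks of these other lists were not examined, so whether they are strong or weak is not known.

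The first H3K27ac peak of an autosome began between 3.01 and 3.74 Mb on 18 of the 19. On chromosome 14 it began at 8.64 Mb, and the space before it was not counted among the stretches.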
